A study of Mus musculus with 34 samples.

Results

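The change in CpG island methylation between 8.5 and 12.5 days post coitum (dpc) was followed in whole mouse embryos on 5 of the 34 arrays of the study, with 1 array per stage. By the methods the DNA came from C57Bl/6 mice, and the labels name no transgene or treatment. How many embryos went into an array is not given in the sources used here. The embryos of 8.5, 9.5, 10.5 and 11.5 dpc are labelled male and those of 12.5 dpc female. For each array, DNA precipitated with an antibody against 5-methylcytidine (bound, labelled with Cy5) was hybridised against total DNA of the same sample (input, Cy3), a method called mDIP. The 16 arrays of colon, pancreas, brain, kidney, liver, lung, muscle and spleen of adults aged 3 months, 2 per tissue, served for comparison and took no part in any slope.

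CpG islands are stretches rich in the dinucleotide CG that cover many promoters. Around implantation the mouse genome gains methylation almost everywhere through the enzymes Dnmt3a and Dnmt3b, while most islands stay free of it, and later gains reach a limited set of them. Islands of germline-specific genes are methylated at this time in the cells of the body, and at imprinted genes 1 parental copy carries methylation, at some regions from the gamete onward.

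An island was a run of at least 3 probes with gaps of at most 500 bases, placed on mm9, the build named in the header of the 8.5 dpc file. Its score was the mean Z-score of its probes, that is, the log ratio of bound over input minus the mean of the array and divided by the SD of the array. In all, 13318 autosomal islands had a score on all arrays used, with 3 to 40 probes each, and 11898 of them carried a gene name. The slope of the score on day (Z per day) was fitted over the 5 arrays. Islands other than the 7 that passed adjustment passed, if at all, at an unadjusted p under 0.05 only, and "rose" and "fell" refer to that threshold unless an adjusted p is given.

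The promoters of 4 of the named genes are shown, since the probes of their islands lie across or just before the transcript start and the scores given for them are readings of this sequence and its neighbourhood. Sycp3 and Igf2r stand for methylated islands with a positive slope and Tor1a and Lrrc3b for islands with a negative one, each at an unadjusted p under 0.05. The windows are those of RefSeq on GRCm38.p6, from 250 bases before the start to 50 after it, 5′ to 3′ along the gene, with each CG in capitals. They lie at chr10:88459337-88459636 (plus strand, 15 CG), chr17:12769657-12769956 (minus, 34 CG), chr2:30967869-30968168 (minus, 18 CG) and chr14:15438938-15439237 (minus, 9 CG), and the median over all 32851 promoter windows of the table is 7 CG.
Sycp3: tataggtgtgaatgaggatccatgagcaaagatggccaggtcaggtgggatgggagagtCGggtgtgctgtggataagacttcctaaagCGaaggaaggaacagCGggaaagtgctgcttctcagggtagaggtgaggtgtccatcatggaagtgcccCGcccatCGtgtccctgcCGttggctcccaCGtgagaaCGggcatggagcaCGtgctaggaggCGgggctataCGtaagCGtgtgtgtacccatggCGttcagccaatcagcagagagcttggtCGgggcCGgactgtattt
Igf2r: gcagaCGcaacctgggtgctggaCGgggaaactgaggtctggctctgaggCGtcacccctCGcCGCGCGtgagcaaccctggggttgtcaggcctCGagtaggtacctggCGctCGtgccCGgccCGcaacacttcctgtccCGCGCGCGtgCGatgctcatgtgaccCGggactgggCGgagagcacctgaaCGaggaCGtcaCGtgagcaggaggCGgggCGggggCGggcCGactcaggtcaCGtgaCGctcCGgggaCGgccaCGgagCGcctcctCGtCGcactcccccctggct
Tor1a: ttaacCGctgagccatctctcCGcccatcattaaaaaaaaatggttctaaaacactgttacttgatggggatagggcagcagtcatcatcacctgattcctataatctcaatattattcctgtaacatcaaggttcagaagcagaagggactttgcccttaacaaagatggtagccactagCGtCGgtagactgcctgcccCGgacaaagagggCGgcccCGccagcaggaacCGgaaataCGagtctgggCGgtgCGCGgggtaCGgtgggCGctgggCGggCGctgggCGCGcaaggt
Lrrc3b: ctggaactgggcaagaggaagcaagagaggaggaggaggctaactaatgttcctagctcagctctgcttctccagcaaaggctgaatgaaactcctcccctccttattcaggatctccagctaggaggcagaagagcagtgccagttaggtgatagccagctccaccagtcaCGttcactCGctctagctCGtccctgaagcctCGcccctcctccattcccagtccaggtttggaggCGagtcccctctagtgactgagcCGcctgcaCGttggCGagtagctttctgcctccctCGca

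Certain arrays stood apart. The 8.5 dpc array was read on another scanner, with another array grid and software version, and was the only embryo array on its slide, while the 9.5 and 10.5 dpc arrays shared a slide and scan day, as did those of 11.5 and 12.5 dpc. Its bound channel had a median ratio of signal to local background of 4.32, against 1.95 to 2.28 on the other 4, and the skew of its log ratios was 0.352 against 1.27 to 1.75. Over the 380 islands of chromosome X the mean score was 0.134 to 0.292 on the 9 adult arrays labelled male and 0.921 to 1.88 on the 7 labelled female. The embryo arrays of 8.5 and 9.5 dpc, labelled male, had means of 1.05 and 1.18, within the range of the female-labelled adults, whereas those of 10.5 and 11.5 dpc had 0.176 and 0.238 and that of 12.5 dpc had 1.89. The libraries labelled male at 8.5 and 9.5 dpc thus went against their label, and the counts, the islands that passed adjustment, the steepest falls, the adult classes and some of the gene lists are also given without both. Stage and labelled sex cannot be told apart at 12.5 dpc. The same holds for every slope without both arrays, which is set by the 10.5 and 12.5 dpc arrays, of different labelled sex and slide.

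The labelled tissue was checked on germline genes, whose islands are methylated in the body. Of the 9 genes listed for this purpose 8 had an island, and 8 of their 9 islands scored above 0.75 on all 5 embryo arrays. Of all 13318 autosomal islands, 1261 to 1335 did so on any single embryo array. The exception among the germline islands was 1 of the 2 islands of Tdrd1, which lay between -0.23 and -0.11. Elf5, which marks trophoblast by its lack of methylation, had no island with a score.

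**Figure D1:**
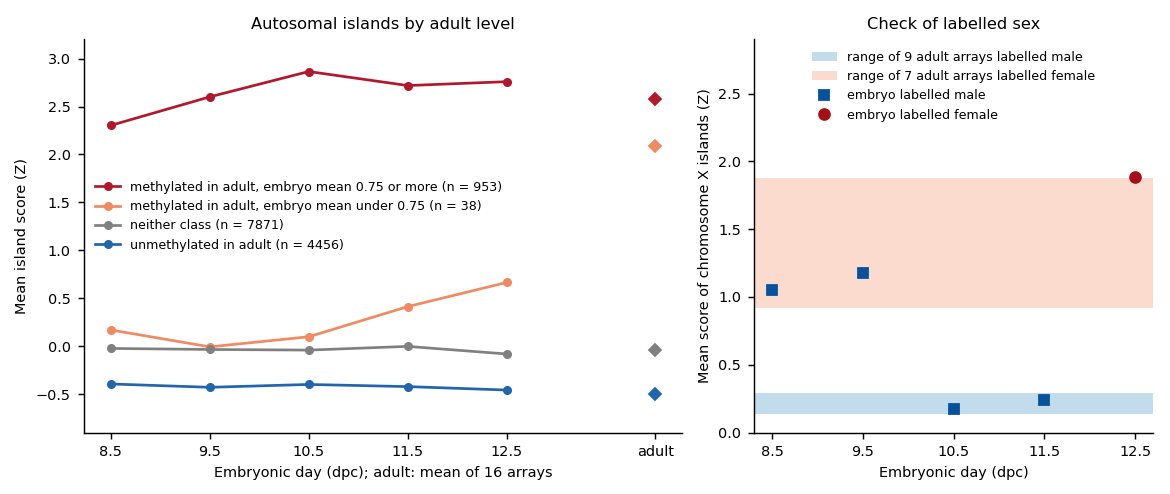
Left, mean score (Z) of autosomal islands on each embryo array (circles) and over the 16 adult arrays (diamonds), for islands unmethylated or methylated on every adult array or neither. The methylated islands with an embryo mean of 0.75 or more went from 2.30 to 2.87 by 10.5 dpc, and the 38 with a lower embryo mean went from 0.0988 at 10.5 dpc to 0.665 at 12.5 dpc. Right, mean score of 380 chromosome X islands on each embryo array, with bands for the range of the adult arrays of each labelled sex. The 8.5 and 9.5 dpc arrays lie in the female band.

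The score rose with stage at a handful of islands, all of them with a higher mean over the 16 adult arrays than at 12.5 dpc. Whether they passed adjustment depended on the arrays and the processing, as given below. With limma, 7 islands (0.0526% of those tested) had a positive slope and 0 (0%) a negative one at a Benjamini-Hochberg adjusted p under 0.05. At an unadjusted p under 0.05 there were 1054 rising (7.91%) and 1106 falling islands (8.3%). The score was higher at every step between stages in 196 islands (1.47%) and lower at every step in 402 (3.02%). The balance of directions depended on the scaling of the arrays: 48.8% of the calls at an unadjusted p under 0.05 were rising with the Z-score, 89.1% with the median and MAD, 89.7% with log2 ratios not divided by the SD, 32.0% with normexp and loess and 14.2% with only probes whose input was well above background.

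The steepest slope belonged to an island between positions -3387 and -3120 from the start of Insl3 (chr8:74209741-74210052, 4 probes), which encodes an insulin-like hormone of Leydig cells. Its score was -1.06 at 8.5 dpc, -0.52 at 9.5, -0.25 at 10.5, 0.668 at 11.5 and 1.55 at 12.5 dpc, and it averaged 2.37 ± 0.709 (SD, n = 16) on the adult arrays. The slope was 0.640 ± 0.0568 per day (SE), with an adjusted p of 0.00547 by limma. Each later stage was thus higher than the one before, from below the mean of the array to well above it. The island had no score with only probes whose input was well above background, since fewer than 3 were left.

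Zfp467, a zinc finger transcription factor, had the lowest adjusted p of all islands (0.00248). The 13 probes of its island lay inside the gene (chr6:48387919-48389354), and the score was 0.396, 1.00, 1.38, 2.04 and 2.51 at the 5 stages in order, a slope of 0.527 ± 0.0396 per day. The slope was 0.181 with normexp and loess (unadjusted p 0.168 by limma). All 13 probes had a positive slope of their own, between 0.240 and 0.779 per day, although probes of an island share the same fragments and are not replicates. Adult tissue scored 3.45 ± 0.364 (SD, n = 16), above every embryo.

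The other islands that passed adjustment also rose at every step. Sipa1, a GTPase-activating protein for Rap, scored 0.289, 0.493, 0.775, 1.35 and 2.12 inside the gene (chr19:5654154-5655273). The island near Tpp1, a lysosomal peptidase, scored 0.330, 0.897, 1.54, 1.91 and 2.04. Of its 7 probes 1 was annotated as promoter, at position -9866 from the start. Zfp46, another zinc finger gene, scored 1.59, 2.09, 2.52, 2.93 and 3.04, so that it was already methylated at 8.5 dpc. Its slope of 0.375 was 0.123 with normexp and loess (unadjusted p 0.505 by limma). For 4933428G20Rik the scores were 0.754, 0.971, 1.16, 1.82 and 2.19. The island at Krtcap3 and Nrbp1 scored 0.163, 0.551, 0.804, 1.12 and 1.47, and it fell outside the rule for named genes only because its slope of 0.318 was smaller than those of the 12 largest. Over these 7 islands the slopes ran from 0.318 to 0.640 per day and the adjusted p from 0.00248 to 0.0312.

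The other 5 islands described among the largest rises passed at an unadjusted p only. Each was lowest at 9.5 dpc and highest at 12.5 dpc. Tnfaip2, a protein induced by TNF, scored -0.27, -0.55, -0.15, 0.875 and 1.57. Scx, the transcription factor scleraxis of tendon progenitors, scored 0.425, 0.423, 0.598, 1.40 and 1.97 over an island that spans its start (chr15:76287758-76288444). Tbkbp1, an adaptor of the kinase TBK1, scored 0.325, -0.02, 0.407, 1.35 and 1.83. Ssbp4, a protein that binds single-stranded DNA, scored -0.08, -0.55, -0.03, 0.660 and 1.33. The island downstream of Urm1, a ubiquitin-related modifier, scored -0.02, -0.50, -0.20, 0.474 and 1.39. The adjusted p of the 11 islands described by the rule ranged from 0.00248 to 0.193, and these islands were chosen by their slope on the same arrays. The slope of Urm1 was 0.179 without the 12.5 dpc array (unadjusted p 0.122), and its unadjusted p was 0.0704 after the curve of each array on the adult mean was subtracted and 0.0947 with plain least squares in place of limma. That of Ssbp4 was 0.0579 with plain least squares, and that of Scx 0.0504 with the adult arrays in limma's estimate of the spread.

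**Figure D2:**
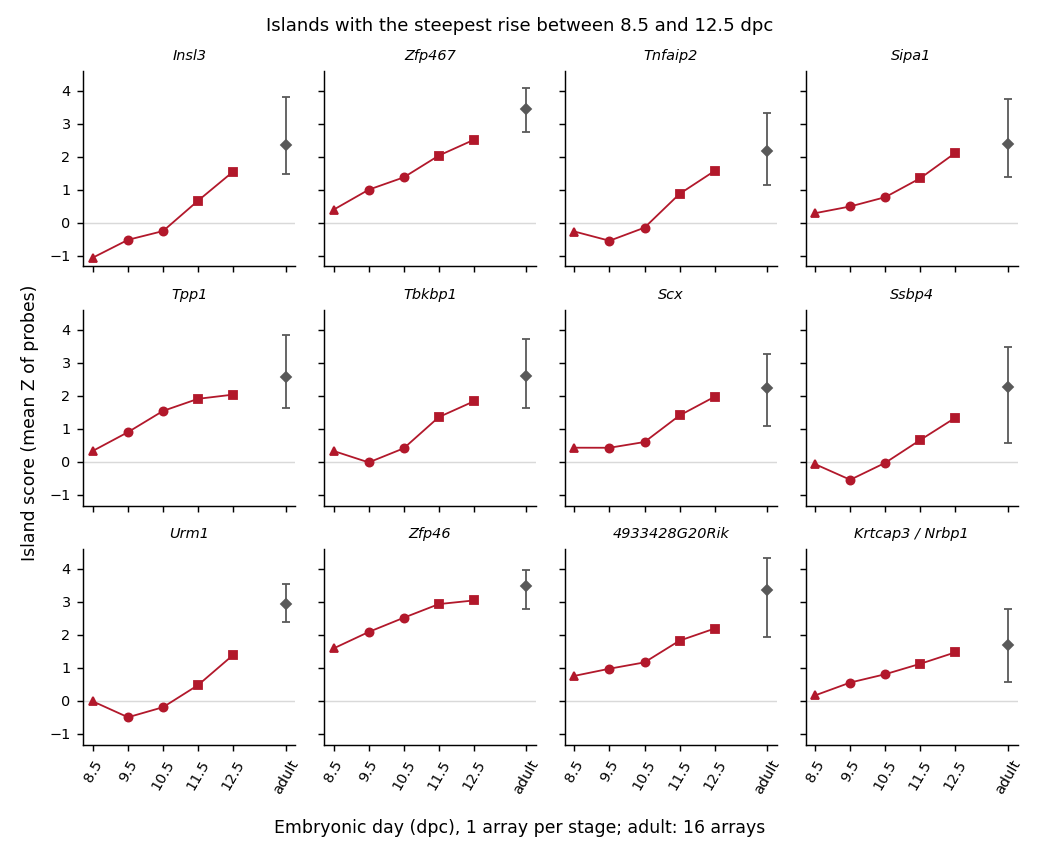
Island score (mean Z) at each stage, 1 array per point, for 11 of the 12 steepest rises and for Krtcap3 / Nrbp1, with arrays of the same slide drawn alike (triangle, circles, squares). Diamonds give the adult mean and bars the lowest and highest of 16 adult arrays. In all 12 panels the 12.5 dpc array is the highest of the 5 and the adult mean lies above it.

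Over these 12 islands, the adult mean exceeded the 12.5 dpc score by 0.235 to 1.54. The means of all 8 tissues did so at 6 of the 12, whereas the 12.5 dpc score was above the mean of 4 tissues at Sipa1, of 2 at Tpp1, Krtcap3, Tnfaip2 and Scx and of 1 at Ssbp4. All probes lay inside the gene in 8 of the 12, against 22.0% of all islands and 71.5% of islands methylated on every adult array, for which probes lay inside a gene only. Between 9.5 and 10.5 dpc and between 11.5 and 12.5 dpc, each a comparison within a slide, the score rose in both steps at all 11 of these islands named by the rule and at all 7 that passed adjustment, whereas 23% of all islands rose in both. These steps entered the slopes by which the islands were chosen. With the slide as a block the slopes of the 7 were 0.271 to 0.573 per day, with an adjusted p of 0.100 or more.

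Without the 8.5 dpc array all 7 islands kept an adjusted p under 0.05 in a set of 39 rising islands. Without both arrays that went against their labelled sex, all 7 kept an unadjusted p under 0.05, and 4 an adjusted p under 0.05, on 3 arrays. Without the 11.5 dpc array or without the 12.5 dpc array 0 islands rose at an adjusted p under 0.05, while each of the 7 kept an unadjusted p under 0.05. Labelled sex was compared in the 5 adult tissues with 1 array of each: the difference of female minus male was -0.21 to 0.467 over the 12 islands, with a median of 0.0941 against -0.0745 over all autosomal islands, and positive in 8. The SD over the 5 tissues was 0.481 to 1.55 per island. The female arrays of these pairs shared an array grid and scan day, and the male arrays had another grid and other scan days. Labelled sex therefore cannot be told apart from grid or scan day in this comparison. Between 11.5 and 12.5 dpc the same islands rose by 0.111 to 0.913.

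**Figure D3:**
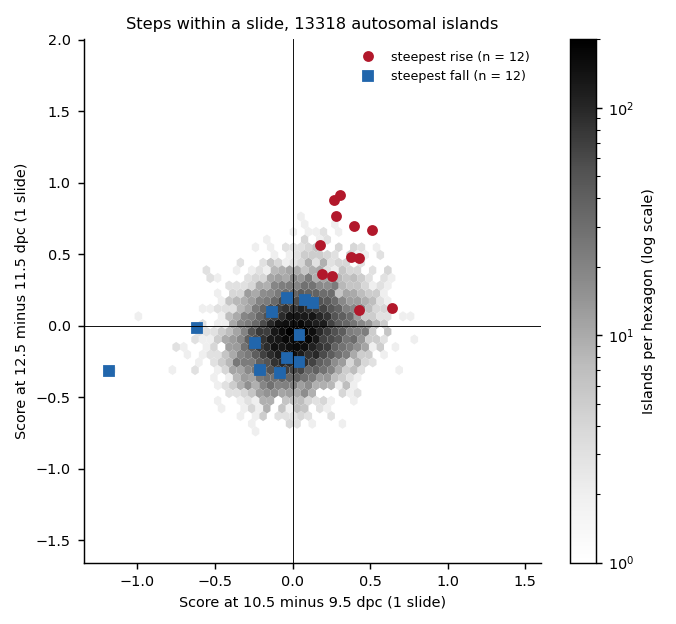
Step in score within a slide from 9.5 to 10.5 dpc (x axis, Z) and from 11.5 to 12.5 dpc (y axis, Z) for 13318 autosomal islands, drawn as hexagons shaded by the number of islands on a log scale. The 12 steep rises described (circles) rise in both steps, and the 12 steepest falls (squares) fall in both steps at 6 of 12.

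Over all 13318 islands the steps within the 2 slides, which share no array, correlated with r = 0.174 (Pearson, across islands, which are not independent replicates and share base composition and probes' behaviour). The step from 8.5 to 9.5 dpc, which crosses slides, correlated with the step from 11.5 to 12.5 dpc with r = -0.0747.

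Falls with stage were smaller, and many of them leaned on the 8.5 dpc array. Among the 12 largest, 8.5 dpc was the highest stage at 10, and 0 passed adjustment (adjusted p 0.140 to 0.302). Lrrc3b, a leucine-rich repeat protein whose promoter is printed above, fell at every step, with 0.729, 0.466, 0.257, 0.177 and -0.13. Its slope was -0.20 ± 0.0392 per day (SE), close to that without the 8.5 dpc array (-0.19) and that with the slide as a block (-0.26). Tor1a, the ATPase torsinA of the endoplasmic reticulum, also fell at every step, with 0.800, 0.227, 0.148, 0.0474 and -0.28. Zfp740 and St6gal2, a zinc finger protein and a sialyltransferase, fell at every step too, from 0.335 to -0.51 and from 0.406 to -0.58.

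The island upstream of Mrtfb, a coactivator of serum response factor, went from 0.735 and 0.861 at 8.5 and 9.5 dpc to 0.247, -0.05 and -0.06. Adrm1, a ubiquitin receptor of the proteasome, went from 0.0330 at 8.5 dpc to -0.73 and -0.79 at 11.5 and 12.5 dpc. At Blvrb and Sptbn4, for a biliverdin reductase and a spectrin, the 9.5 dpc array alone was high, with 1.17 against 0.242 or less on the others. The order of the stages thus differed between these genes.

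Nkx2-5, the homeobox factor of the heart field, scored 0.784 at 8.5 dpc and -0.34, -0.21, -0.44 and -0.28 at later stages. Its slope of -0.22 became -0.0044 without the 8.5 dpc array and 0.144 with the slide as a block. Celf2, a splicing regulator, and Agap1, a GTPase-activating protein for Arf, likewise turned positive under the slide block, at 0.0807 and 0.132. C2cd4c and Zfp410, a zinc finger gene, had slopes of -0.24 and -0.21 that shrank to -0.10 and -0.06 without that array. In all, 7 of the 12 falls shrank by more than 1.5 times without the 8.5 dpc array, against 0 of the 11 rises. Without both the 8.5 and 9.5 dpc arrays all 12 slopes stayed negative, and 2 of the 12, Adrm1 (-0.266, unadjusted p 0.0145 by limma) and Tor1a (-0.215, unadjusted p 0.0410), kept an unadjusted p under 0.05.

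**Figure D4:**
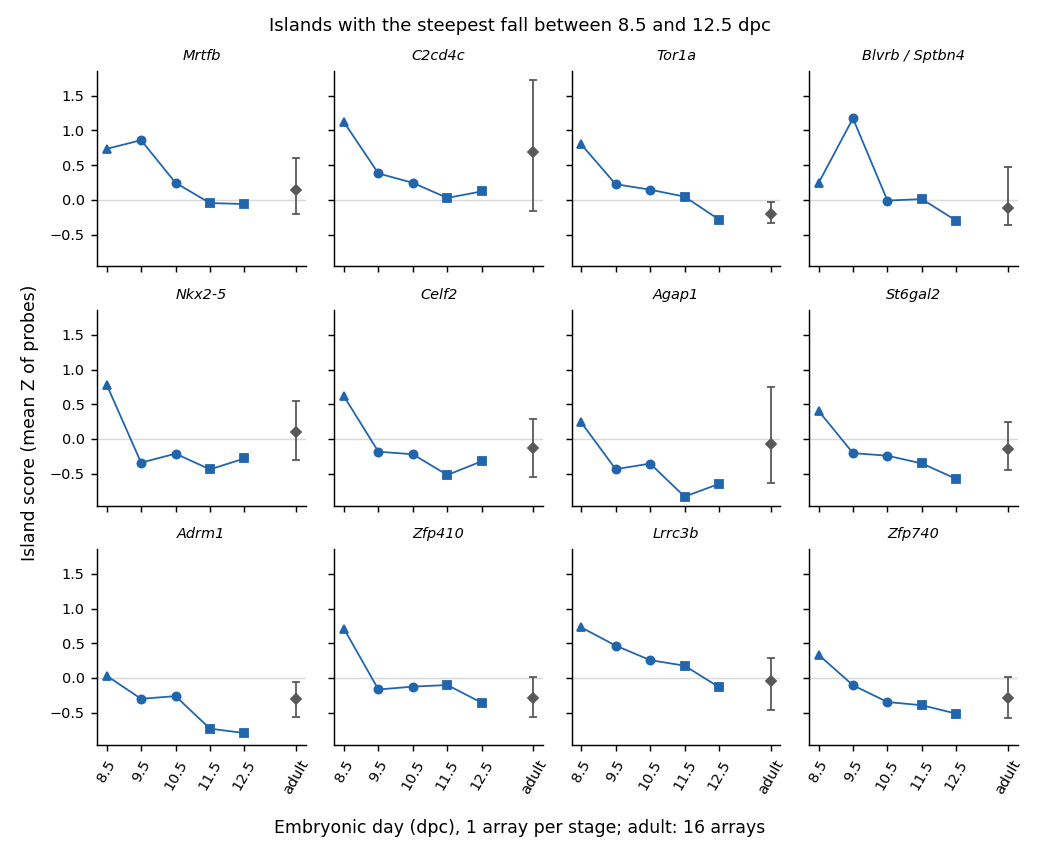
Island score (mean Z) at each stage for the 12 steepest falls, with symbols as for the rises and adult means (diamonds) with the lowest and highest of 16 adult arrays. At 10 of the 12 the 8.5 dpc array is the highest, and the adult mean lies above the 12.5 dpc score at all 12.

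The adult arrays then served to sort islands by a measure that took no part in the slopes. Islands methylated on every adult array (score above 0.75, 991 islands) had a median slope of 0.105 per day, against -0.0089 over all islands, and 348 of them (35.1%) rose and 8 fell at an unadjusted p under 0.05. Their mean score was 2.22, 2.50, 2.76, 2.63 and 2.68 at the 5 stages and 2.56 on the adult arrays. The low value was that of the 8.5 dpc array, and without it the median slope was 0.0261, without the 8.5 and 9.5 dpc arrays -0.0714, and with quantile normalization -0.0092. Islands unmethylated on every adult array (score below 0, 4456 islands) had means of -0.39, -0.43, -0.40, -0.42 and -0.46, with 218 rising (4.89%) and 379 falling (8.51%). Their median slope was -0.0159 and turned positive with the median and MAD (0.0206) and with log2 ratios not divided by the SD (0.0317).

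The relation of the embryo arrays to the adult mean also differed between stages. Across islands, the slope of the embryo score on the adult mean was 0.836 at 8.5 dpc and 0.923, 0.989, 0.957 and 0.984 at the later stages. After the smooth curve of each array on the adult mean was subtracted, the median slope of the methylated islands was 0.0054 and 0 islands passed adjustment. There were then 1088 islands rising, unadjusted p under 0.05, and 844 islands falling, unadjusted p under 0.05, by limma. Whether the 8.5 dpc embryos or the 8.5 dpc array was less methylated at these islands cannot be told apart.

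One group of the methylated islands differed from the rest in its median slope without the 8.5 dpc array, but little in the share that rose. These were the 38 with a score above 0.75 on every adult array and a mean under 0.75 over the embryos, a cutoff chosen after the values were seen. Their mean was 0.170, -0.0064, 0.0988, 0.414 and 0.665 at the 5 stages and 2.09 in adult tissue, with the 2 highest embryo means at 11.5 and 12.5 dpc. Of the 38, 15 rose (39.5%) and 0 fell at an unadjusted p under 0.05, and 1 (Insl3) passed adjustment. Their median slope of 0.0723 stayed positive with each scaling run, at 0.192 without the 8.5 dpc array, 0.255 without both the 8.5 and 9.5 dpc arrays, 0.123 with the slide as a block and 0.0558 without the 12.5 dpc array. Of the other 953 methylated islands 333 rose (34.9%) and 8 fell. Their median slope was 0.105, larger than that of the 38, and 0.149 with the slide as a block. It fell to 0.0225 when the 8.5 dpc array was left out.

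Some of the 38 are given as examples, chosen after their values were seen. An island inside Gata3, for a transcription factor of T cells and trophoblast, scored 0.0796, -0.24, 0.111, 0.470 and 0.961, with 1.73 in adult tissue. Hlx, a homeobox gene of visceral mesenchyme, scored 0.332, -0.14, 0.0781, 0.603 and 1.05. Cavin1, a coat protein of caveolae, rose at every step with 0.0810, 0.394, 0.478, 0.900 and 1.46. A further island of Insl3, between positions -9624 and -9219 from its start, scored 0.370, 0.195, 0.467, 0.762 and 1.44. Both islands near Insl3 were highest at 12.5 dpc. Runx3, for a transcription factor of neurons and T cells, scored 0.684, 0.497, 0.486, 0.911 and 1.04 (unadjusted p 0.0539). Snai1, a repressor active in the epithelial to mesenchymal transition, lay between 0.223 and 0.431 with no trend (unadjusted p 0.597), and Lyl1, a factor of blood stem cells, between 0.354 and 0.567 (unadjusted p 0.773).

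Where the adult level lay was then asked of the islands called by slope. The adult mean was above the embryo mean in 50.4% of the 1054 rising and 26.7% of the 1106 falling islands, against 35.7% of all islands. Among the 208 rising islands with a slope above 0.2 it was 66.8%, and 33.2% had an adult mean above the 12.5 dpc score as well. That last share was 46.2% of all islands, 21.7% of the rising and 80.7% of the falling ones. Across all islands the slope and the difference of adult from embryo mean correlated with r = 0.180 (Pearson, 13318 islands, with the embryo arrays in both). By place in the gene, 13.1% of the 2928 islands with probes inside a gene only and 12.5% of the 1135 with promoter probes only rose at an unadjusted p under 0.05, against 4.90% of the 7124 that had both. In the same order 7.62%, 6.78% and 8.17% fell. Without the 8.5 dpc array the median slope went from 0.0098 to -0.00049 for islands inside a gene only and from 0.0061 to -0.0054 for promoter probes only. Without the 8.5 and 9.5 dpc arrays 4.37%, 3.61% and 1.22% rose and 3.21%, 3.44% and 2.16% fell. The median slopes were then -0.0315, -0.0235 and -0.0314. The difference between places was not tested.

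Gene lists of development were read against the background of 7.91% rising and 8.3% falling at an unadjusted p under 0.05, and 0 members passed adjustment save the islands of Zfp467 and Zfp46 among 232 of Zfp genes. Without the 8.5 and 9.5 dpc arrays the median slope over all islands was -0.0306. It was above that in 14 of the 21 lists and below it in 7, and positive in 1, the Hox clusters (0.0039). With these arrays left out 2.22% of all islands rose and 2.77% fell, against 4 and 0 of the 67 Hox islands and 5 and 2 of the 155 neural ones. Certain list members described below had fewer than 3 probes with input well above background on all embryo arrays. They had no score from the Z-scores deposited by the authors either. These were Hoxa10, Hoxb4, Pax6, Sox2, Hand1, Dlx2, Col2a1, Fli1, H2bc4, H2ac4, Wnt5a, Wnt7a, Gdf6, Dnmt3a, Mbd3 and Rpl3.

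Of 67 islands in the Hox clusters, whose genes set position along the body axis, 11 rose (16.4%) and 3 fell. Their mean score went from -0.47 at 8.5 dpc to -0.37, -0.33, -0.30 and -0.29, so that they stayed below the array mean. The median slope was 0.0327 and was 0.0331 without the 8.5 dpc array, positive with each scaling run. An island upstream of Hoxa10 scored -1.92, -0.70, -0.93, -0.55 and -0.35, and another upstream of Hoxb4 -1.30, -0.42, -0.32, -0.50 and 0.0475. The lowest score of both was at 8.5 dpc, and the slope of Hoxa10 turned to -0.0146 with the slide as a block. Adult means were -0.46 and -0.05.

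Neural tube patterning genes had 23 of 155 islands rising (14.8%) and 9 falling. Pax6, a factor of eye and neural progenitors, scored -1.29, -0.64, -0.19, 0.115 and -0.11 at an island upstream of its start. An island between positions -8086 and -7662 from the start of Sox2, of neural and pluripotent cells, scored -1.79, -0.12, -0.71, 0.219 and -0.48. Its slope turned from 0.297 to -0.02 without the 8.5 dpc array and to -0.64 with the slide as a block. Among genes of heart and skeletal muscle 8 of 62 rose and 2 fell. An island between positions -5137 and -4903 from the start of Hand1, of the heart and the trophoblast, rose at every step with -0.95, -0.29, -0.12, 0.0974 and 0.271. Its slope of 0.282 was 0.0967 with normexp and loess (unadjusted p 0.147 by limma). For limb and skeleton 13 of 82 rose (15.9%) and 2 fell. An island downstream of Dlx2, of craniofacial mesenchyme, scored from -1.37 at 8.5 dpc to -0.37 at 12.5 dpc, with a slope of -0.0816 under the slide block. Col2a1, the collagen of cartilage, stood at -1.52 at 8.5 dpc and between -0.57 and -0.46 later.

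Blood and endothelium genes had 11 of 43 islands rising (25.6%) and 1 falling, and a mean that went from -0.0125 to 0.186. Fli1, an ETS factor of both lineages, scored -0.72, -0.68, -0.53, -0.05 and 0.150 upstream of its start and 1.47 in adult tissue. Flt4, the receptor of lymphatic endothelium, scored 0.559, 0.447, 0.344, 0.870 and 1.479 inside the gene. Their slopes without the 8.5 dpc array (0.297 and 0.362) were larger than with it (0.237 and 0.226), and without the 12.5 dpc array they were 0.215 and 0.0830. The median slope of the list was 0.0387, and it was 0.0098 without the 8.5 dpc array and -0.0177 without the 8.5 and 9.5 dpc arrays.

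**Figure D5:**
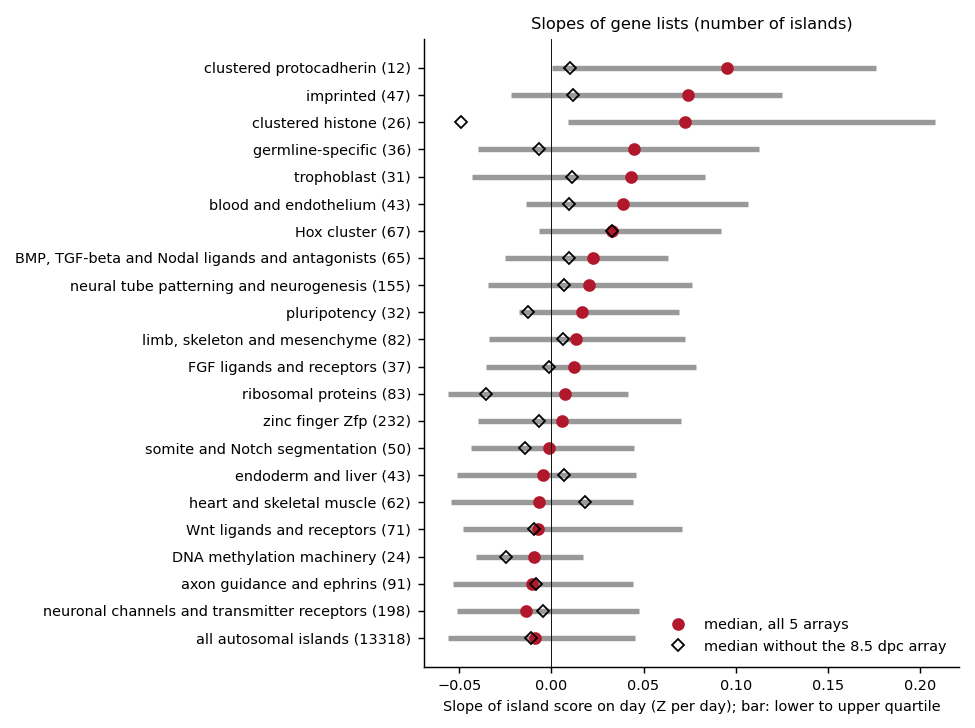
Median slope (Z per day, filled circles) and lower to upper quartile (bars) of each gene list and of all islands, with the number of islands in brackets and the median without the 8.5 dpc array as open diamonds. The Hox median is 0.0327 with and 0.0331 without that array, while that of the clustered histones goes from 0.0722 to -0.0491.

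A score above 0.75 on all 5 arrays was reached by 22 of 36 islands of germline-specific genes and by 23 of 47 of imprinted genes. On any single embryo array 1261 to 1335 of the 13318 autosomal islands scored above 0.75. Of the 36 germline islands 6 rose (16.7%) and 2 fell, and of the 47 imprinted ones 10 rose (21.3%) and 2 fell. Among islands methylated on every adult array 35.1% rose. The median slopes of the 2 lists were 0.0447 and 0.0740. They were -0.0067 and 0.0120 without the 8.5 dpc array, and -0.0625 and -0.0283 without the 8.5 and 9.5 dpc arrays. Ddx4, a helicase of germ cells, scored 2.29, 3.43, 3.66, 3.47 and 3.48. Sycp3, of the synaptonemal complex, scored 2.51, 3.103, 3.48, 3.49 and 3.36 across the promoter printed above. Igf2r, an imprinted receptor that clears Igf2, scored 1.46, 1.84, 2.13, 1.96 and 2.53, and Impact 2.24, 2.82, 3.17, 3.12 and 3.03. The 8.5 dpc score was the lowest of each, and without it the slopes were -0.0049 for Ddx4, 0.0777 for Sycp3, 0.188 for Igf2r and 0.0578 for Impact. 

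Of 12 islands in the protocadherin clusters, which give neurons their identity, 5 rose (41.7%) and 0 fell. Their mean on the adult arrays was 1.64, and 35.1% of islands methylated on every adult array rose. The median slope of the list was 0.0952, and it was 0.0100 without the 8.5 dpc array and -0.0514 without the 8.5 and 9.5 dpc arrays. Pcdhga12 scored 0.562, 0.487, 0.826, 1.22 and 1.25, with 2.15 in adult tissue. An island between positions -5628 and -5319 from the start of Pcdha10 scored 2.07, 2.83, 3.00, 3.16 and 2.85. Its slope turned to -0.0696 with the slide as a block. Clustered histone genes had 9 of 26 rising (34.6%) and 1 falling, but their mean was -0.84 at 8.5 dpc and -0.22, -0.22, -0.35 and -0.26 later, and without that array the median slope was -0.0491. H2ac4 went from -1.30 to 0.205, and the island of H2bc4 and H2ac6 was -1.63 at 8.5 dpc and between -0.18 and 0.0113 later. Trophoblast genes had 6 of 31 rising and 0 falling, with Hand1 and Gata3 described above, and pluripotency genes 4 of 32 and 0, where Sall4, a zinc finger factor of stem cells, scored 2.31, 2.88, 3.17, 2.96 and 2.97.

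Wnt ligands and receptors had 7 of 71 rising (9.86%) and 6 falling, FGF 2 of 37 and 2, and the BMP, TGF-beta and Nodal group 9 of 65 (13.8%) and 3. Wnt5a, a non-canonical ligand, scored 2.40, 2.38, 2.77, 2.47 and 3.16, and its slope changed sign with normexp and loess. Wnt7a, a ligand of limb and neural tissue, went from 0.143 to 0.616. Spry1, an inhibitor of FGF signalling, fell at every step with -0.02, -0.14, -0.33, -0.46 and -0.56, and its slope of -0.14 was the same to 2 decimals without the 8.5 dpc array and with the slide as a block. Fgfr1 was high at 8.5 dpc alone (0.202 against -0.32 or less), and its slope turned to 0.286 with the slide as a block. Smad6, an inhibitor of BMP signalling, rose at every step with 2.39, 2.77, 2.91, 3.07 and 3.18. Gdf6, a BMP ligand, went from -0.82 at 8.5 dpc to between -0.17 and 0.154, and its slope turned to -0.0532 with the slide as a block.

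The remaining lists were those of the somite clock with 2 of 50 rising and 1 falling, endoderm with 2 of 43 and 4, neuronal channels with 20 of 198 (10.1%) and 16, axon guidance with 5 of 91 and 5, and ribosomal proteins with 3 of 83 and 6. An island near Exoc6 and Cyp26a1, the latter a retinoic acid hydroxylase of the somite list, scored 0.149, -0.30, -0.18, 0.241 and 1.102, with 2.44 in adult tissue. Ripply2, of somite boundaries, went from 0.115 to -0.35. In endoderm Foxa1 and Mnx1 moved in opposite directions, from 0.389 to -0.36 and from -0.90 to -0.33, and both turned sign with the slide as a block. The Mnx1 island lay downstream of the gene, 10098 to 10769 bases after its start. The glutamate receptor Grm4 of the channel list scored 2.78 at 8.5 dpc and 3.26 or more afterwards. Among guidance genes Sema6c went from 0.559 to 1.405 and the receptor Epha4 from -1.10 to -0.41, and of ribosomal genes Rpl3, shared with Syngr1, was at -1.26 at 8.5 dpc and between -0.23 and -0.10 later, while Rpl28, shared with Tmem238, went from 0.378 to -0.35.

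The enzymes and readers of methylation themselves had 3 of 24 islands rising and 1 falling. Dnmt3a, which sets new methylation, scored -0.31, -0.06, -0.10, 0.616 and 0.320 at an island that ends 67 bases before a start. Mbd3, a subunit of the NuRD complex, scored 2.78, 2.77, 3.21, 3.22 and 3.50 inside the gene. The slopes without the 8.5 dpc array were 0.185 and 0.221, but that of Dnmt3a turned to -0.17 with the slide as a block.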

How the data were processed

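mDIP and input DNA of 5 embryo and 16 adult arrays were read from the deposited scanner files, which per the file headers come from Agilent Feature Extraction. The authors subtracted background, normalised dyes linearly and formed the log10 ratio of bound over input from the spot intensity values. The authors also deposited a table of Z-scores, a score made from the log ratios with regard to probe Tm, used as an alternative. Control spots were known from a flag in each scanner file. The place of probes in genes and their distance to transcript starts came from 1 further scanner file.

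Control and outlier spots were left out, log10 ratios were turned into Z-scores per array, and islands were scored on mm9. Slopes were fitted with limma 3.58.1 (lmFit, eBayes) in R 4.3.3 and adjusted (Benjamini-Hochberg) over 13318 autosomal islands, and this step was tested on simulated data. Other steps used Python 3.11.15, numpy 2.4.6 and pandas 2.3.3. With 1 array per stage, p-values measure scatter about a line, which may be technical, and the number of arrays limits the precision. Gene names were those of the array, 9319 current and 2128 matched by synonym to RefSeq. For the steepest slopes, islands had at least 4 probes, an adjusted p under 0.05 (unadjusted where fewer than 12 qualified) and 1 sign with each array left out. The 12 largest slopes each way were taken, and the 2 largest of each of 21 lists. List members did not have to meet these conditions, and some had 3 probes only. Of these, 2 islands are not reported here. Members, lists and tests were chosen with earlier results of these data known. The other 13 sample columns of that table were not used. For normexp, median spot signals stood in for the planned means, which some embryo files do not hold.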

Additional observations from a re-analysis of the deposited data

Results flagged for a closer look

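A bound signal over background of 4.32 on the 8.5 dpc array stood apart from the other 4 embryo arrays by a gap of 0.862 of the range, past Dixon's critical value of 0.71 for 5 samples. The SD of the log2 ratio on the 12.5 dpc array (1.74 against 1.51 or less) gave 0.732. Of 89 such sets of 5 values examined, 11 passed this limit, 9 of them through the 8.5 dpc array. Chance passes about 1 independent set in 20, but these sets hold islands chosen for their slope on the same arrays and lists that share genes, so that rate is no measure for them.

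Scores at 8.5 dpc lay apart at Nkx2-5 (gap 0.815 of the range), Zfp410 (0.761), Col2a1 (0.900), Ddx4 (0.828), the island of Rpl3 and Syngr1 (0.885) and that of H2bc4 and H2ac6 (0.881). The mean of the pluripotency list (0.779) and of the clustered histones (0.791) was lowest there by such a gap, and the mean of the somite list was lowest at 9.5 dpc (0.743).

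Outside the autosomes, the mean score of chromosome X islands was 1.05 on the 8.5 dpc array and 1.18 on the 9.5 dpc array, both labelled male, against at most 0.292 on the 9 adult arrays labelled male.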

How the results depend on the processing

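The 7 rising islands kept a positive slope in all settings in which they were scored, and an unadjusted p under 0.05 except in normexp and loess (5 of 7) and with the spread taken with the adult arrays (6 of 7). Counts of islands rising, adjusted p under 0.05, and islands falling, adjusted p under 0.05 (7 and 0), were 534 and 4 with log2 ratios not divided by the SD, 13 and 4 with quantile normalization, 30 rising with the authors' processed Z-scores, 20 with at least 5 probes, 11 and 1 with gaps of at most 1000 bases, 21 and 3 with a trended robust prior, 3 and 1 with the slide (or scan day) as a block, 39 and 1 with the software version (or grid) as a block and 39 and 6 without the 8.5 and 9.5 dpc arrays. Rising islands were 2 with the median of the probes and 1 with chromosomes X and Y kept. They were 0 with normexp and loess, with the later minus the earlier pair of arrays, with the adult arrays in the spread, after the curve on the adult mean and with plain least squares, which gave 1 falling island. With each array left out in turn the counts were 0 to 39 rising and 0 to 1 falling.

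Counts of islands rising, unadjusted p under 0.05, and islands falling, unadjusted p under 0.05 (1054 and 1106), were 2431 and 298 with the MAD, 2581 and 296 with undivided log2 ratios, 272 and 579 with normexp and loess, 402 and 2433 with only probes whose input was well above background, 250 and 491 with the adult arrays, 524 and 677 with the slide, 548 and 664 with the version and 296 and 369 without 2 arrays. Rising islands were 638 with the authors' Z-scores, 658 with 5 probes and 509 with least squares, and falling ones 481 with the pair difference. Leaving out an array gave 548 to 1250 rising and 664 to 1389 falling. Counts of islands higher at every step and islands lower at every step (196 and 402) were 497 and 136 with the MAD, 679 and 130 with undivided log2 ratios and 75 and 701 with the filter on dim probes. They were 72 higher with normexp, 127 with the probe median and 122 with 5 probes, and 216 lower with the authors' Z-scores and 257 after the curve.

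The median slope, methylated in adult tissue (0.105), was 0.3997 with the MAD, 0.378 with log2 ratios, -0.0092 with quantile normalization, 0.0481 with the authors' Z-scores, 0.0261 with the version as a block, 0.0054 after the curve and -0.0714 without 2 arrays, and 0.0261 to 0.159 with an array left out. The median slope, unmethylated in adult tissue (-0.0159), was 0.0206 with the MAD, 0.0317 with log2 ratios, -0.0019 with normexp, -0.0644 with the dim filter, -0.0416 with the probe median, -0.0023 with the slide, -0.0079 after the curve and -0.0321 without 2 arrays, and -0.0209 to -0.0109 with an array left out. The median slope, all islands (-0.0089), was 0.0477 with the MAD and 0.0557 with log2 ratios, and -0.0133 to 0.0034 with an array left out.

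Single slopes changed sign with the slide as a block at Nkx2-5 (0.144), Celf2 (0.0807), Agap1 (0.132), Hoxa10 (-0.0146), Sox2 (-0.64), Dlx2 (-0.0816), Foxa1 (0.164), Mnx1 (-0.16), Pcdha10 (-0.0696), Fgfr1 (0.286), Gdf6 (-0.0532), Dnmt3a (-0.17) and Rpl3 (-0.00077). With normexp they did at Hoxb4 (-0.0197), Ddx4 (-0.0031), Sycp3 (-0.0246), Wnt7a (-0.10), Wnt5a (-0.24), Grm4 (-0.0237) and Mbd3 (-0.11), and with the dim filter at Epha4 (-0.0012). Without the 8.5 dpc array, or with the version as a block, they did at Sox2 (-0.0160; with an array left out -0.0160 to 0.545) and Ddx4 (-0.0049; -0.0049 to 0.376), and without 2 arrays at Ddx4 (-0.0935), Sycp3 (-0.0618), Impact (-0.0682), Sall4 (-0.10), Pcdha10 (-0.0789), Gdf6 (-0.0038) and Grm4 (-0.15). The cause was not tested. Slopes with the MAD or undivided log2 ratios are on other scales. The older coordinates, the curve on the adult mean and the fit without 2 arrays were chosen after seeing the data, and normexp used median spot signals. No paired analysis was possible because each stage has 1 array and no replicate number is shared between stages, whereas the slide was used as a block as given above.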
